A study of Homo sapiens with 64 samples.

Results

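The genes described here were 37 integrin, laminin and other matrix adhesion genes, chosen by symbol. Of these, 36 matched a row by Ensembl identifier among the 54127 genes of the count files, and ITGB3 was not analysed here. By role they were 8 laminin chains, 4 laminin receptor chains, 4 collagen receptor chains, 5 integrin chains of RGD-binding receptors, 5 other integrin chains, 6 collagens and 4 linker proteins or proteoglycans of the basement membrane. RNAseq libraries were made from 6 established colorectal cancer cell lines, HT55, SW948, RKO, SW48, DLD1 and HCT15, grown without serum or attachment as spheroids in EGF and bFGF. Every sorted line was first stained with CFSE, a dye shared out between daughter cells, and was sorted by FACS on day 6 into label-retaining cells (LRCs, CFSE bright) and the remaining non-LRCs. Each line gave 4 libraries of LRCs and 4 of non-LRCs, 48 in all. A further 16 control libraries carried the label DLD1 and no sorted population, and they came from spheroids treated with CFSE or with DMSO alone (unlabeled), on day 1 and on a later day (day 5 in the sample labels, day 6 in the design text), 4 of each. The study's methods give the 4 libraries of a group as biological replicates, and each line is a single established line. In a fit of 1 line the p-values measure the spread between replicates of that line. The fit across the 6 lines used 1 LRC effect for all lines, so its spread also holds differences of that effect between lines. Its p-values took the 48 libraries as units and not the 6 lines, so a pass can rest on 1 line. The fits of levels, of the LRC effect differing between lines and of the controls shared the spread between replicates over their groups.

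Integrins are receptors made of an alpha and a beta chain that bind matrix outside the cell and link it to the cytoskeleton. Laminins are trimers of an alpha, a beta and a gamma chain that, with type IV collagen, nidogens, agrin and perlecan, build the basement membrane under an epithelium. In intestinal epithelium, the integrin of ITGA6 and ITGB4 holds the cell to laminin in the hemidesmosome, and integrins with the ITGB1 chain bind laminins, collagens and fibronectin. COL17A1 is a transmembrane collagen of some hemidesmosomes.

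Between 12237225 and 20913455 reads were counted on genes per library, and the 36 genes together took 0.302% to 1.05% of them. All 48 sorted libraries were closest to other libraries of their own line. The 16 control libraries labelled DLD1 were closer to the sorted HCT15 libraries (r 0.949 to 0.992 over 16899 genes) than to the sorted DLD1 libraries (r 0.913 to 0.954), and among the 9 adhesion genes that differed over 2-fold between DLD1 and HCT15 non-LRCs, all 9 lay nearer HCT15 in the unlabeled later-day controls, as did 91.0% of the 2740 genes with such a difference. These 9 were ITGA6, ITGA7, ITGB2, ITGB6, ITGB7, ITGB8, LAMA4, COL4A1 and NID1. NID1 had few or no reads in the non-LRCs of both lines, so its difference is uncertain. Among the controls, 3 libraries were closest to a group other than their own. Unlabeled day 1 replicate 4 correlated with the unlabeled later-day group (r 0.617, deviations from the mean of all controls) and not with the other 3 unlabeled day 1 libraries (r -0.261). CFSE later-day replicates 3 and 4 correlated with the unlabeled later-day group (r 0.359 and 0.514) slightly more than with their own (r 0.269 and 0.498). Epithelial markers (EPCAM, CDH1, KRT8, KRT18, CLDN7) summed to 197.5 to 313.3 CPM (counts-per-million, a gene's reads scaled to a common library size) in RKO against 2562 to 14690 in the other 5 lines, and CDH1, the epithelial cadherin, was at 0.93 CPM in RKO non-LRCs. Summed fibroblast and endothelial markers did not pass 13.4 and 3.59 CPM in any library. Summed leukocyte markers reached 1651 CPM, in SW948.

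Across the 6 lines, with line as a covariate, 10 of the 33 adhesion genes tested rose in LRCs and none fell (edgeR quasi-likelihood test, Benjamini-Hochberg adjusted over all genes). The same test called 12.2% of all tested genes higher and 10.7% lower. The log2 fold change was positive for 28 of the 33, with a median of 0.14 against 0.015 over all genes tested. ITGA11, COL12A1 and NID2 had too few reads in every line to be tested. By role, 4 of 8 laminin chains rose, as did 2 of 4 laminin receptor chains, 1 of 3 collagen receptor chains and 3 of 5 RGD receptor chains. None of 5 other integrins, 5 collagens and 3 linkers passed the test. Without RKO, 4 of 33 rose, against 7.98% of genes called higher and 6.62% called lower in those 5 lines, and they were LAMA3, LAMB3, LAMC1 and ITGA5. Without the libraries numbered 3, 6 of the set passed, against 13.7% of all genes. With the replicate number as a block, 12 rose, ITGB1 (log2 fold change 0.10) and ITGB2 (0.55) in addition, against 13.4% of genes called higher and 12.2% lower.

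In bulk RNA, fewer cells of one kind and less RNA per cell cannot be told apart. Of 6 cycling markers (MKI67, TOP2A, CCNB1, CDC20, MCM2, MCM5), 5 were lower in LRCs of RKO and 5 in LRCs of DLD1, 3 were lower across lines, and none passed the test in HT55, SW948, SW48 or HCT15, where the median log2 fold change was 0.07, -0.15, -0.59 and 0.22. The mitochondrial share of reads was 7.01% to 10.5% in RKO LRCs against 4.47% to 6.57% in RKO non-LRCs, and 13.8% to 14.2% against 9.66% to 11.3% in SW48. The part of these differences in the results on adhesion genes was not tested.

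**Figure D1:**
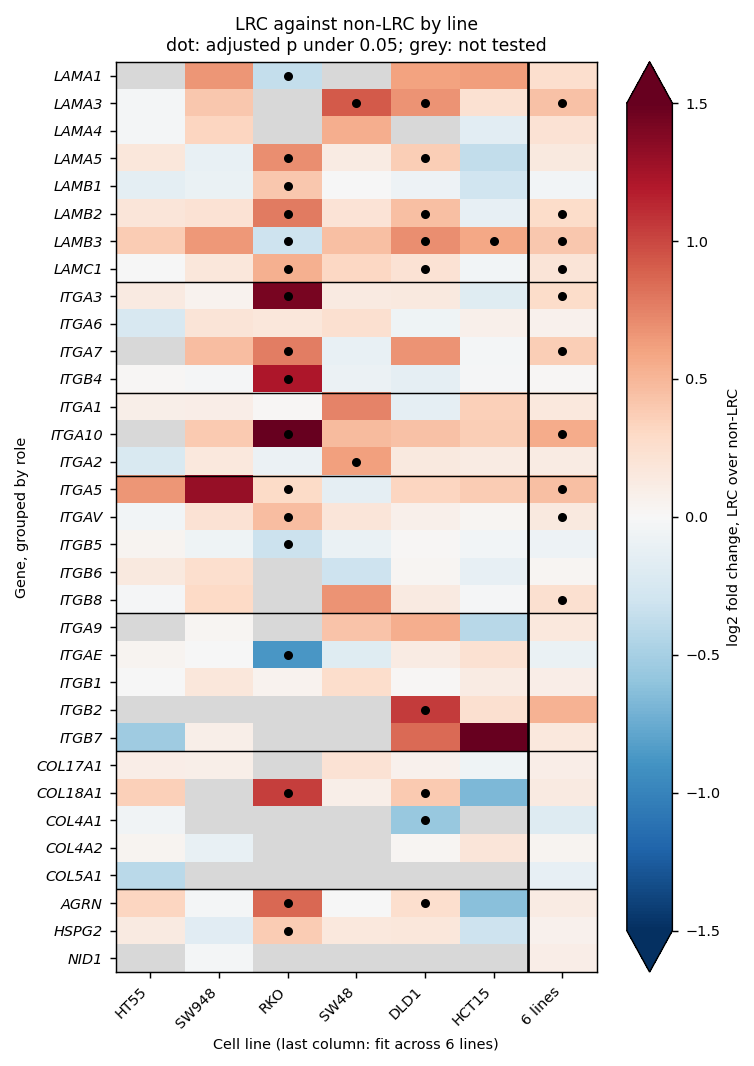
Log2 fold change of LRCs over non-LRCs for each adhesion gene that was tested (vertical axis, grouped by role) in each line and across the 6 lines (horizontal axis), with a dot where the adjusted p was under 0.05 and grey where a gene had too few reads. RKO holds 17 dots, DLD1 9, SW48 2, HCT15 1 and HT55 and SW948 none, and ITGA10 in RKO (2.15) lies beyond the colour scale.

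LAMA3 and LAMB3 encode the alpha and beta chains of the epithelial laminin that anchors hemidesmosomes. On hg19 the genes span chr18:21269417-21536186 on the plus strand (LAMA3, ENSG00000053747) and chr1:209788215-209825770 on the minus strand (LAMB3, ENSG00000196878). LAMA3 gave the smallest p of the set, with a log2 fold change of 0.44 (SE 0.074, adjusted p = 2.32e-05). In SW48, LAMA3 stood at 519, 456, 551 and 554 CPM in LRC replicates 1 to 4 and at 322, 307, 237 and 230 CPM in non-LRCs. In DLD1, LAMA3 was at 181, 178, 183 and 201 CPM in LRCs against 106, 113, 118 and 132 CPM. Every LRC library lay above every non-LRC library in both lines. In SW948 the LRC libraries held 81.5, 96.0, 110 and 76.9 CPM and the non-LRC libraries 66.5, 60.9, 75.8 and 73.3 CPM, again without overlap, but the test within SW948 did not pass (log2 fold change 0.41, adjusted p = 0.159). HT55 overlapped fully, with 192 to 286 CPM in LRCs and 225 to 274 CPM in non-LRCs, and HCT15 overlapped in part, with 83.2 to 117 and 69.7 to 106 CPM. RKO was near 0 for LAMA3, at 0.174 CPM or less in every library.

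LAMB3 rose across lines by a log2 fold change of 0.41 (SE 0.097, adjusted p = 0.00175). In DLD1 it was at 591, 591, 496 and 508 CPM in LRCs and at 328, 349, 317 and 358 CPM in non-LRCs. In HCT15 it was at 299, 299, 383 and 327 CPM against 247, 187, 224 and 221 CPM. LRCs and non-LRCs did not overlap in these lines. RKO went the other way without overlap, at 1234, 1165, 1227 and 1161 CPM in LRCs and 1490, 1469, 1448 and 1449 CPM in non-LRCs. SW48 held the highest LAMB3 levels, 3111, 1283, 2976 and 2967 CPM in LRCs and 2880, 783, 2009 and 1858 CPM in non-LRCs, with replicate 2 far below the others in both populations. In HT55 the LRC libraries held 964, 848, 748 and 961 CPM and the non-LRC libraries 547, 907, 636 and 624 CPM, with non-LRC replicate 2 inside the LRC range. In SW948, 3 LRC libraries (209, 184 and 224 CPM) lay above the non-LRCs (111 to 124 CPM), and LRC replicate 4 at 109 CPM did not. Without RKO the log2 fold change of LAMB3 was 0.55 (adjusted p = 0.000256).

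The stretches of 250 bases upstream of the LAMA3 and LAMB3 start sites are shown because these chains were the only members that held the AP-1 letters TGANTCA on either strand, here in capitals. Of the 36 genes, 29 matched the RefSeq promoter table (GRCh38.p14, 38 start sites), and 2 start sites held the letters, against 6.57% of 35116 promoters. Among the 38 start sites, that of LAMA3 has its stretch at chr18:23872770-23873019 on the plus strand. Its matches run from base -125 to -119 and from -69 to -63, counted from the start site. The stretch of the third LAMB3 start site lies at chr1:209651375-209651624 on the minus strand, with a match from -67 to -61. Start sites of these genes beyond the 38 were not examined.
LAMA3: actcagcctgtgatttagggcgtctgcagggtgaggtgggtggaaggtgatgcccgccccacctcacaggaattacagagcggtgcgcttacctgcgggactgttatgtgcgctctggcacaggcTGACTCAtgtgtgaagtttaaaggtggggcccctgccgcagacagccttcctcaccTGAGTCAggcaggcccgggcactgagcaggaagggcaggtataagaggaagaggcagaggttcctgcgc
LAMB3: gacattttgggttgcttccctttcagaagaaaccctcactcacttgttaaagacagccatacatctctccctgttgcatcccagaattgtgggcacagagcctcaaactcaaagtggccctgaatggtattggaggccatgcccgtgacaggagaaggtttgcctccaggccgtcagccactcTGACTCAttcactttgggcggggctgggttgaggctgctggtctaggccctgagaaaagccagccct
A match describes the letters and not a bound site, and no binding was measured here. The GC box letters GGGCGG, read on either strand, were in 25 of the 38 start sites and in 42.6% of all promoters. The TEAD letters GGAATG were in 4 (COL12A1, ITGA10, ITGA5 and ITGB1; 11.9% of all promoters), and the ETS letters CCGGAAGT were in 1 (ITGB5; 3.42%). No overlap of one motif with another was removed.

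LAMB2 and LAMC1 encode the beta and gamma chains of the laminins that LAMA5 also enters, the common laminins of the intestinal basement membrane. LAMC1 rose across lines by a small log2 fold change of 0.19 (SE 0.043, adjusted p = 0.000812). In RKO it was at 335, 281, 280 and 317 CPM in LRCs and 227, 221, 171 and 206 CPM in non-LRCs. SW48 held 233, 214, 242 and 222 CPM against 180, 172, 200 and 182 CPM, and DLD1 held 264, 252, 264 and 261 CPM against 221, 210, 220 and 248 CPM. LAMC1 did not overlap between LRCs and non-LRCs in these 3 lines, nor in SW948 (161 to 186 against 146 to 156 CPM). It overlapped in HT55 (197 to 255 against 230 to 249 CPM) and HCT15 (206 to 260 against 224 to 267 CPM).

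LAMB2 rose by 0.28 (SE 0.066, adjusted p = 0.00137). DLD1 LRCs held 541, 541, 487 and 490 CPM of LAMB2 against 368, 375, 375 and 403 CPM in non-LRCs, and RKO LRCs held 186, 143, 156 and 145 CPM against 104, 85.1, 86.0 and 85.5 CPM. Both lines were without overlap. HCT15 overlapped, at 306, 274, 444 and 473 CPM against 442, 319, 438 and 441 CPM, as did HT55 (219 to 298 against 222 to 257 CPM), SW948 (62.4 to 89.2 against 55.2 to 71.4 CPM) and SW48 (173 to 217 against 145 to 191 CPM). Without RKO the value for LAMB2 was 0.18 and did not pass (adjusted p = 0.0526). The other 4 laminin chains, LAMA1, LAMA4, LAMA5 and LAMB1, did not pass across lines.

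**Figure D2:**
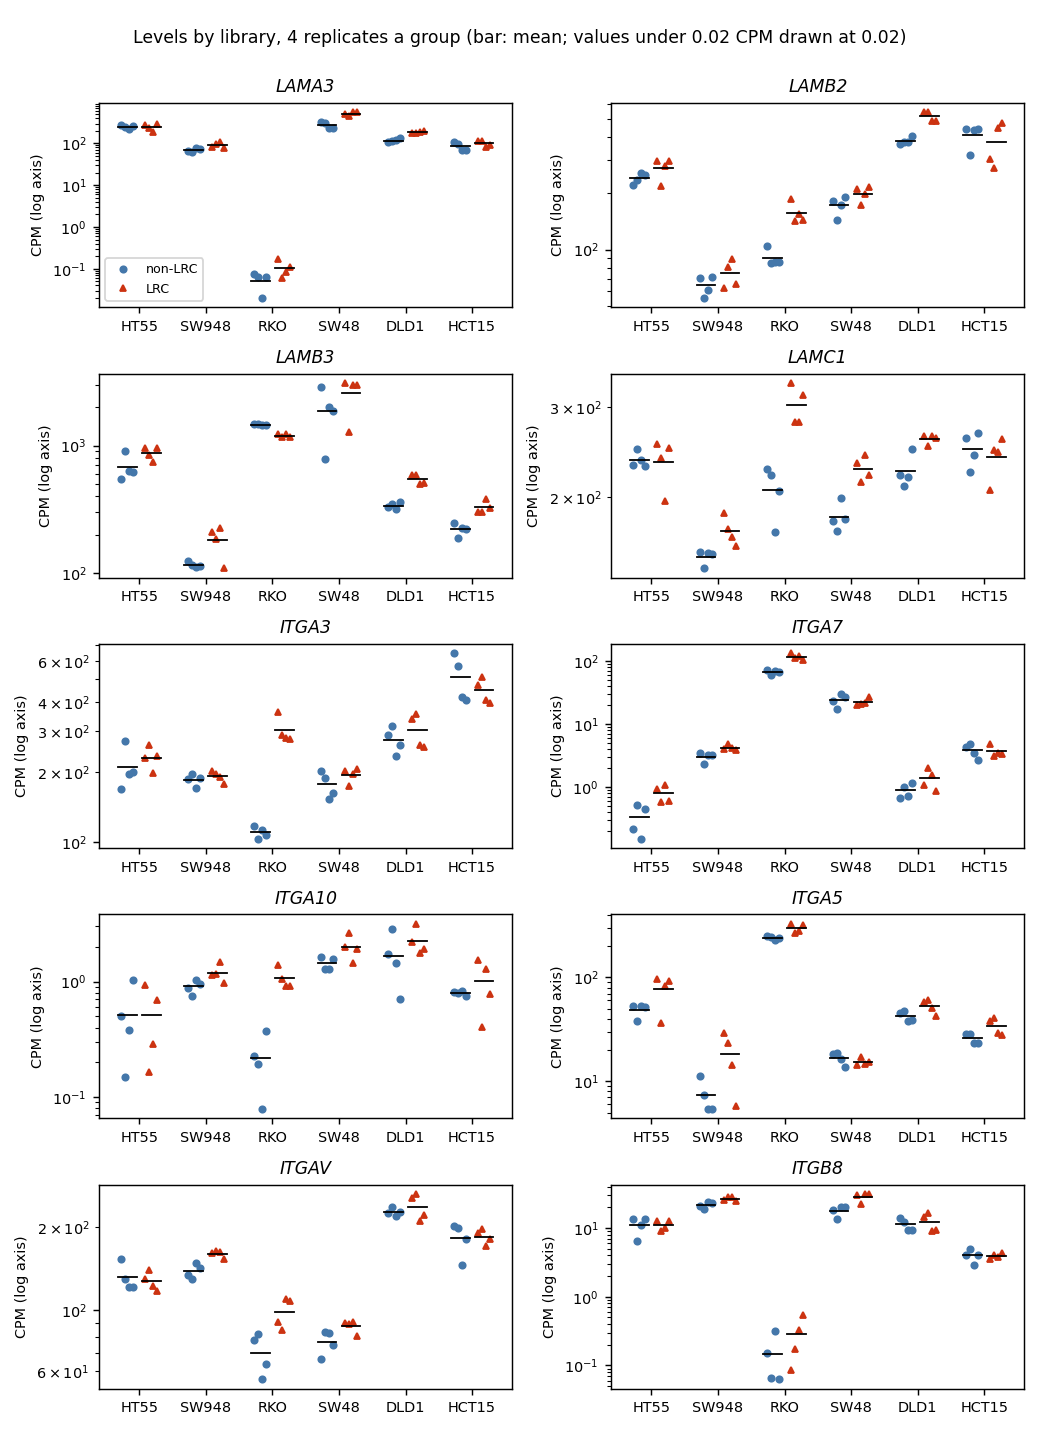
CPM on a log axis in each sorted library for the 10 genes that rose across lines, by line (horizontal axis), with non-LRCs as circles, LRCs as triangles and a bar at each mean of 4. LAMB3 of RKO is the reverse case, with LRCs at 1161 to 1234 CPM under non-LRCs at 1448 to 1490 CPM.

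Among laminin receptor chains, ITGA3, which pairs with ITGB1, rose across lines by 0.28 (SE 0.092, adjusted p = 0.025), a value carried by RKO. ITGA3 was at 363, 288, 281 and 276 CPM in RKO LRCs and at 117, 103, 113 and 107 CPM in RKO non-LRCs, a log2 fold change of 1.43 in that line (SE 0.088, adjusted p = 1.54e-08). Every RKO LRC library was above every non-LRC library. Elsewhere the ranges overlapped: 197 to 261 against 170 to 271 CPM in HT55, 179 to 202 against 170 to 196 in SW948, 175 to 207 against 154 to 203 in SW48, 256 to 355 against 235 to 315 in DLD1, and 397 to 513 against 406 to 648 in HCT15. Without RKO the log2 fold change of ITGA3 was 0.05.

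ITGA7, another alpha chain for laminin, rose by 0.37 across lines (SE 0.096, adjusted p = 0.00424). Its level was substantial only in RKO, at 132, 111, 120 and 102 CPM in LRCs against 72.5, 60.1, 67.8 and 67.0 CPM, and in SW48, at 19.9 to 26.8 against 17.4 to 29.6 CPM. RKO did not overlap and SW48 did. SW948 held 3.88 to 4.76 CPM of ITGA7 in LRCs against 2.34 to 3.42 CPM, HT55 0.576 to 1.09 against 0.152 to 0.527, DLD1 0.873 to 1.98 against 0.659 to 1.17, and HCT15 3.10 to 4.84 against 2.66 to 4.84. SW948 and HT55 did not overlap and DLD1 and HCT15 did. Without RKO ITGA7 was 0.23 and did not pass. ITGA6 and ITGB4, the chains of the hemidesmosome integrin, did not pass across lines.

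ITGA5 and ITGAV are the alpha chains of receptors that bind the RGD motif of fibronectin and related ligands. ITGA5, the fibronectin receptor, rose by 0.45 (SE 0.11, adjusted p = 0.00269). It was at 330, 270, 282 and 321 CPM in RKO LRCs and at 253, 243, 227 and 242 CPM in RKO non-LRCs, without overlap. In SW948 it ran from 29.3, 23.2 and 14.5 down to 5.82 CPM in LRCs against 11.2, 7.46, 5.40 and 5.41 CPM, with replicate 4 inside the non-LRC range. In HT55 it was at 96.6, 36.7, 82.3 and 93.3 CPM against 53.3, 38.0, 53 and 52.1 CPM, with replicate 2 the lowest in both populations. DLD1 (42.1 to 60.7 against 38.1 to 47.7 CPM) and HCT15 (27.7 to 40.3 against 23.3 to 28.8 CPM) overlapped slightly, and SW48 overlapped at 14.3 to 17.0 against 13.8 to 18.6 CPM. ITGA5 stayed past the threshold without RKO at 0.49 (adjusted p = 0.0117).

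ITGAV, the shared alpha chain of several RGD receptors, rose by only 0.15 (SE 0.047, adjusted p = 0.0152). RKO LRCs held 90.8, 84.7, 110 and 108 CPM of ITGAV against 78.1, 82.3, 56.1 and 63.7 CPM, and SW948 held 161, 163, 162 and 153 CPM against 134, 130, 148 and 143 CPM. Neither line overlapped. The ranges overlapped in HT55 (118 to 139 against 121 to 154 CPM), SW48 (80.3 to 90.5 against 66.6 to 83.1), DLD1 (210 to 263 against 219 to 236) and HCT15 (171 to 197 against 146 to 202). ITGB8, a partner of ITGAV known for activating latent TGF-beta, rose by 0.25 (SE 0.093, adjusted p = 0.0489). In SW48 ITGB8 was at 30.0, 22.6, 31.3 and 30.8 CPM in LRCs and 18.2, 13.3, 20.1 and 20.3 CPM in non-LRCs, and in SW948 at 25.8, 28.7, 27.9 and 24.8 CPM against 21.2, 19.0, 23.9 and 23.4 CPM. Both lines were without overlap, while HT55 (8.97 to 12.6 against 6.55 to 13.7), DLD1 (9.01 to 16.7 against 9.28 to 14.2) and HCT15 (3.48 to 4.34 against 2.85 to 4.97) overlapped and RKO was at 0.541 CPM or less. Without RKO, neither ITGAV (0.09) nor ITGB8 (0.23) passed, and ITGB8 also failed without SW948 (0.23), without SW48 (0.13) and with no filter on low counts (0.24). ITGAV failed without SW948 (0.14). ITGB5 and ITGB6, further beta partners of ITGAV, did not pass across lines.

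ITGA10, a collagen receptor chain, rose by 0.55 (SE 0.17, adjusted p = 0.0121) at levels of 3.17 CPM or less in every sorted library. The RKO LRC libraries held 1.39, 1.05, 0.908 and 0.920 CPM of ITGA10 and the non-LRC libraries 0.227, 0.195, 0.0789 and 0.375 CPM, where 3 reads correspond to 0.237 CPM. These groups did not overlap, but the non-LRC level was at the limit of detection. ITGA10 elsewhere ran from 0.151 CPM (HT55 non-LRCs) to 3.17 CPM (DLD1 LRCs) with overlap in each of the other 5 lines, and without RKO it was 0.36 and did not pass. ITGA1 and ITGA2, the epithelial collagen receptors, did not pass across lines.

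Each line was also fitted alone. In RKO, 17 of the 21 genes tested passed, 13 higher and 4 lower, against 20.4% of all genes higher and 21.0% lower. The 13 were ITGA3, ITGA5, ITGA7, ITGA10, ITGAV, ITGB4, LAMA5, LAMB1, LAMB2, LAMC1, COL18A1, AGRN and HSPG2, with log2 fold changes from 0.29 (ITGA5) to 2.15 (ITGA10). AGRN, the proteoglycan agrin, was at 278, 211, 263 and 227 CPM in RKO LRCs and at 152, 132, 121 and 125 CPM in non-LRCs (0.86, adjusted p = 5.02e-06). LAMA5 was at 149, 116, 154 and 126 CPM against 92.9, 87.7, 75.9 and 74.6 CPM (0.70, adjusted p = 4.67e-05). Neither gene overlapped between the populations in RKO.

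The 4 that fell in RKO LRCs were ITGAE, ITGB5, LAMA1 and LAMB3. ITGAE, a chain of the receptor for E-cadherin, was at 5.13, 6.83, 7.43 and 6.98 CPM in RKO LRCs and at 11.3, 12.3, 13.0 and 11.2 CPM in non-LRCs. It fell by 0.87 on the log2 scale (SE 0.13, adjusted p = 9.06e-05), and its groups were apart. ITGB4 rose in RKO by 1.21 (SE 0.27, adjusted p = 0.00196) from a very low level, 0.867 to 1.81 CPM in non-LRCs to 2.31 to 3.39 CPM in LRCs. COL18A1, the source of endostatin, rose from 1.23 to 1.81 CPM to 2.31 to 3.85 CPM (1.04, adjusted p = 0.00233). Leaving out each replicate in turn left 13 to 16 genes past the threshold in RKO, against 27.3% to 37.6% of all genes. With all 48 sorted libraries in one fit, ITGA5, LAMA1, LAMB3 and HSPG2 no longer passed in RKO, where 26.4% of all genes then passed.

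**Figure D3:**
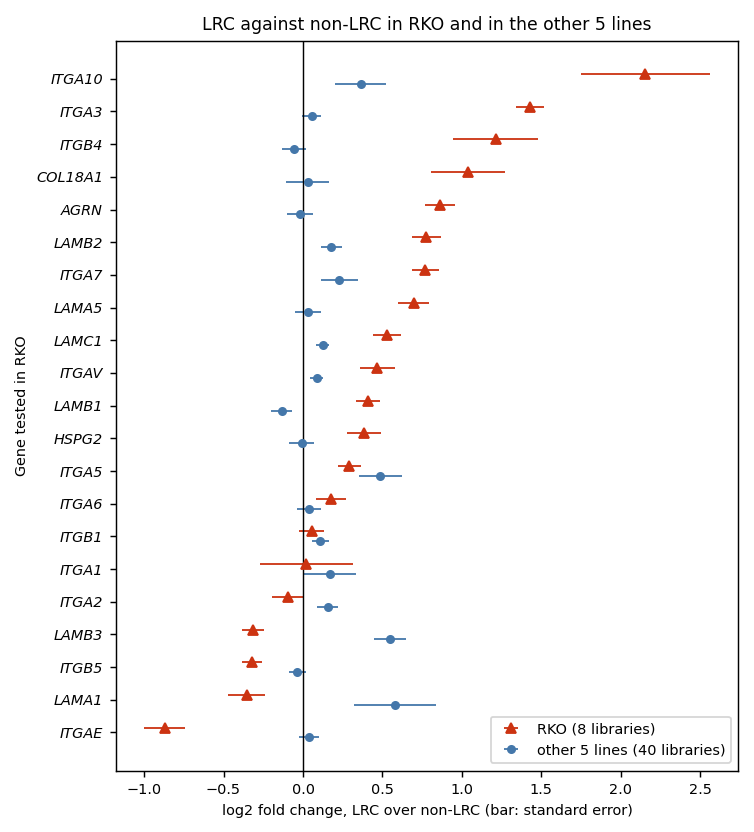
Log2 fold change of LRCs over non-LRCs (horizontal axis, with standard errors) of the 21 adhesion genes tested in RKO, in RKO (triangles, 8 libraries) and in one fit of the other 5 lines (circles, 40 libraries). ITGA3 was at 1.43 in RKO and 0.05 in the other 5 lines, and LAMB3 at -0.32 and 0.55.

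In DLD1, 9 of 30 passed, 8 higher and 1 lower, against 6.67% of all genes higher and 7.89% lower. Beside LAMA3 (0.68), LAMB3 (0.70), LAMB2 (0.45) and LAMC1 (0.22) described above, LAMA5 (0.37), ITGB2 (1.04), COL18A1 (0.39) and AGRN (0.25) rose. ITGB2, the beta chain of leukocyte integrins, was at 1.93, 1.78, 2.03 and 2.86 CPM in DLD1 LRCs against 1.05, 0.920, 1.31 and 0.855 CPM, apart but low. COL4A1, a main chain of type IV collagen, fell by 0.56 (SE 0.14, adjusted p = 0.0196), from 16.4, 15.0, 16.9 and 17.2 CPM in non-LRCs to 10.4, 9.24, 9.83 and 14.6 CPM in LRCs. Its partner COL4A2 did not pass in DLD1, at 13.9 to 19.0 CPM in LRCs and 15.6 to 17.9 CPM in non-LRCs. Without replicate 1 only 3 genes passed in DLD1, against 4.35% of all genes, and without replicate 3 only 5, against 4.82%. With all 48 sorted libraries in one fit 2 passed (LAMA3 and LAMB2), against 3.89% of all genes. With the replicate number as a block, 14 rose and 2 fell (COL4A1 and ITGB4), against 17.1% of all genes higher and 16.6% lower. The added genes were ITGA2, ITGA3, ITGA5, ITGA9, ITGB7 and HSPG2, which rose, and ITGB4, at -0.14.

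In SW48, 2 of 26 passed, LAMA3 (0.92, SE 0.13, adjusted p = 0.0109) and ITGA2 (0.62, SE 0.12, adjusted p = 0.0487), against 0.720% of all genes higher and 0.0758% lower. ITGA2, the main collagen receptor chain of epithelia, was at 233, 271, 248 and 219 CPM in SW48 LRCs and at 129, 186, 164 and 152 CPM in non-LRCs, without overlap. No gene of the set passed without replicate 1, 3 or 4, where at most 0.0465% of all genes did, and 4 passed without replicate 2, against 3.84%. With the replicate block, 10 rose and none fell in SW48, against 5.36% of all genes higher and 4.33% lower. They were LAMA3, LAMA4, LAMB2, LAMB3, LAMC1, ITGA2, ITGA6, ITGB1, ITGB8 and COL17A1, with log2 fold changes from 0.21 (LAMB2) to 0.93 (LAMA3).

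In HCT15, LAMB3 alone of 30 passed (0.58, SE 0.11, adjusted p = 0.046), against 0.728% of all genes higher and 0.250% lower, and it did not pass when any one replicate was left out, where at most 0.196% of all genes did. With the replicate block, 5 rose (ITGA5, ITGB7, LAMA1, LAMA3, LAMB3) and 6 fell (ITGA9, LAMA5, LAMB1, COL18A1, AGRN, HSPG2), against 11.3% of all genes higher and 10% lower. AGRN was at 211, 186, 318 and 367 CPM in HCT15 LRCs and at 444, 334, 455 and 453 CPM in non-LRCs. Each LRC library lay below the non-LRC library of its own number, by -0.67 on the log2 scale with the block (adjusted p = 0.000157) and -0.63 without it (adjusted p = 0.17). LAMB1 was at 143, 155, 138 and 142 CPM in HCT15 LRCs against 190, 181, 170 and 176 CPM, without overlap (-0.30, adjusted p = 0.0757 without the block and 0.00182 with it).

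In HT55 none of 27 and in SW948 none of 29 passed by edgeR or by DESeq2. Of all genes, edgeR called 0% in each line, and DESeq2 called 0.276% in HT55 and 1.79% in SW948. At an unadjusted p under 0.05, edgeR gave 2 of the set in HT55 (ITGA5 and LAMB3), against 7.51% of all genes, and 11 in SW948, against 17.2%. The 11, all with positive values, were LAMA3, LAMB3, LAMC1, ITGA2, ITGA5, ITGA6, ITGA7, ITGAV, ITGB1, ITGB6 and ITGB8, from 0.16 (ITGA2) to 1.30 (ITGA5). Without the libraries numbered 2, 5 of the set passed in HT55, against 6.13% of all genes. ITGA5 (0.79) and LAMB3 (0.58) rose, and ITGA6 (-0.33), ITGB7 (-0.60) and COL5A1 (-0.46) fell. HT55 replicate 2 held less ITGB7 and COL5A1 than the other replicates in both populations, ITGB7 at 19.3 and 20.2 CPM against 29.4 to 53.6 CPM and COL5A1 at 47.0 and 48.6 CPM against 65.4 to 113 CPM. With the replicate block, edgeR again called none of the set and 0% of all genes in HT55. In SW948, 3 of the set passed without the libraries numbered 4, against 7.02% of all genes.

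The difference of the LRC effect between lines was tested directly by the interaction of line and population. It passed for 11 of 33 adhesion genes, against 14.3% of all genes, and in order of p these were ITGA3, AGRN, ITGAE, LAMC1, LAMA3, ITGA7, ITGA2, ITGB7, LAMB2, LAMA5 and COL18A1. AGRN had its highest log2 fold change in RKO (0.86) and its lowest in HCT15 (-0.63). LAMB3 did not pass this test (adjusted p = 0.112). With the replicate block, 24 of 33 passed, LAMB3 among them (adjusted p = 0.000369), against 33.6% of all genes. Without the libraries numbered 1, 3 or 4, 5, 7 and 7 passed, against 3.20%, 4.88% and 5.40% of all genes.

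Levels between lines were compared in the 24 non-LRC libraries. All 33 tested adhesion genes differed between lines, against 98.3% of all genes tested. The 20 genes detected in every line spanned from 1.32-fold (ITGB5) to 3211-fold (COL17A1) between the highest and the lowest line mean. RKO had the lowest mean for 21 of the 36 genes, and HT55 the highest for 11. In RKO 15 genes were at or under the level of 3 reads per library, against 5 in DLD1 and in HCT15, 6 in SW948, 7 in HT55 and 10 in SW48.

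ITGB5 and LAMC1 were the most even. ITGB5, the beta chain of a vitronectin receptor, ran from 173 ± 23.8 CPM in SW48 to 229 ± 15.9 CPM in HT55 (SD, n = 4), and LAMC1 from 153 ± 5.14 CPM in SW948 to 249 ± 19.4 CPM in HCT15. COL17A1, ITGB4 and LAMA3 spanned the most between lines, and each was lowest in RKO. ITGB4 was at 376 ± 29.8 CPM in DLD1, the lowest of the other 5 lines, and at 1.14 ± 0.448 CPM in RKO. COL17A1 was at 90.1 ± 15.7 CPM in HCT15, 137 ± 3.69 in DLD1, 411 ± 108 in HT55, 677 ± 40.6 in SW948 and 1144 ± 264 in SW48, and at 0.356 ± 0.185 in RKO. LAMA3 ran from 69.1 ± 6.76 CPM in SW948 to 274 ± 47.3 CPM in SW48, while RKO was at 0.0508 ± 0.0343 CPM, under the level of 3 reads.

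CPM per kilobase of exon was taken over the joined length of all annotated exons of a gene, 14488 bases for LAMA3 and 4647 for LAMB3. The transcripts present can be shorter, so ratios between genes depend on this length and are rough. On this scale RKO non-LRCs held LAMB3 at 315 ± 4.26 and ITGB1 at 162 ± 12.6, against 0.0035 for LAMA3, the alpha chain with which LAMB3 assembles. In the other 5 lines the level of LAMB3 per kilobase was 5.30 (SW948) to 21.9 (SW48) times that of LAMA3. The level of ITGA6 per kilobase was 0.470 (HCT15) to 1.17 (HT55) times that of ITGB4 in these 5 lines, and 30.5 times in RKO, where ITGA6 itself was at 4.81. ITGA5, at 32.7 in RKO, was 0.997 to 6.65 in the others, and ITGA7, at 7.36 in RKO, was 0.037 to 2.65 in the others. LAMA1, the embryonic type alpha chain, was at 1.25 in RKO and did not pass 0.238 elsewhere.

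**Figure D4:**
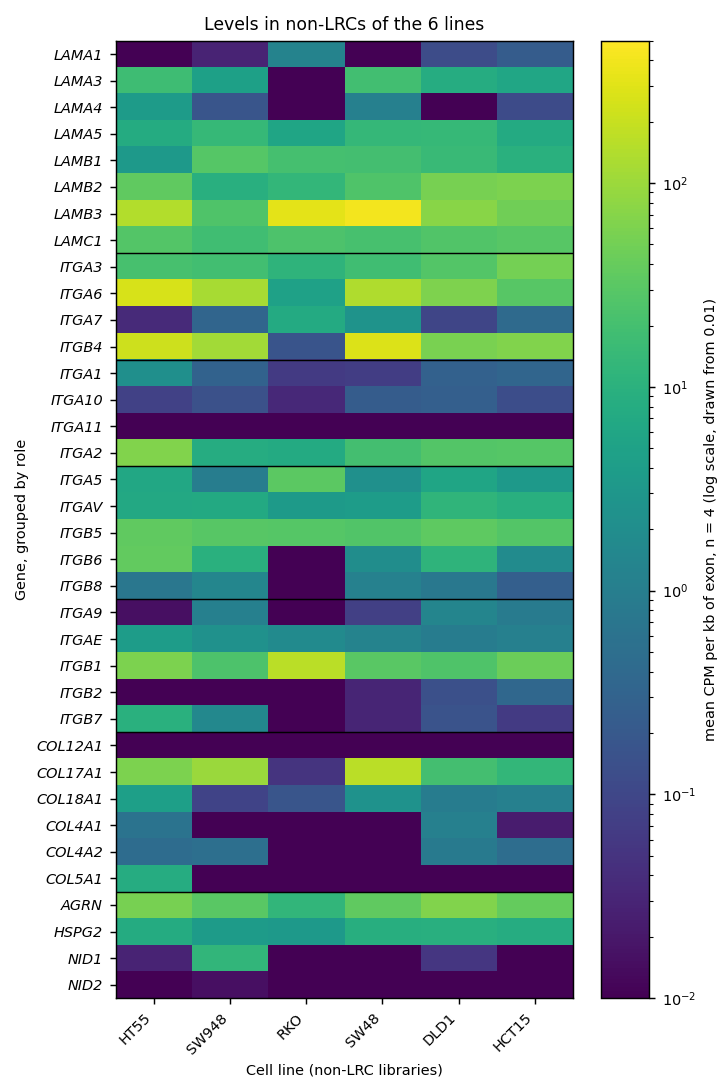
Mean level of each adhesion gene (vertical axis, grouped by role) in non-LRCs of each line (horizontal axis, n = 4), as CPM per kilobase of exon on a log colour scale drawn from 0.01. RKO is dark for LAMA3, ITGB4, ITGB6 and COL17A1 and bright for LAMB3 (315) and ITGB1 (162).

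Some genes were read in 1 line or a few. COL5A1, a fibril collagen chain, was at 91.0 ± 28.9 CPM in HT55 non-LRCs and at 0.0557 CPM or less as a mean in the other 5 lines. NID1, which links laminin to type IV collagen, was at 71.0 ± 1.30 CPM in SW948 and at 0.319 CPM or less as a mean elsewhere. ITGB7 was at 43.5 ± 15.8 CPM in HT55 and 6.98 ± 1.37 CPM in SW948. The level of ITGB7 is uncertain because 42.3% of its exon bases lie in another annotated gene, and use of strand in the counting is not given in the sources used here. The same limit holds for NID2 (30.7%), COL18A1 (18.5%), ITGA1 (13.2%) and HSPG2 (11.7%).

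COL4A1 and COL4A2, which start on opposite strands of chromosome 13 a short way apart, did not follow each other. COL4A1 was at 16.4 ± 0.968 CPM in DLD1 and 9.13 ± 3.97 CPM in HT55, and did not pass 0.335 CPM as a mean in the other 4 lines. COL4A2 was at 16.7 ± 0.964 CPM in DLD1, 8.76 ± 2.87 in HT55, 9.38 ± 3.21 in HCT15 and 9.87 ± 0.987 in SW948, and was near 0 in RKO and SW48. So HCT15 and SW948 held COL4A2 with COL4A1 at 0.335 and 0.0636 CPM. The 126 bases between the start sites (RefSeq, GRCh38.p14, chr13:110307158-110307283, plus strand) are shown because they lie upstream of both genes, with the single GC box in capitals.
COL4A1 and COL4A2: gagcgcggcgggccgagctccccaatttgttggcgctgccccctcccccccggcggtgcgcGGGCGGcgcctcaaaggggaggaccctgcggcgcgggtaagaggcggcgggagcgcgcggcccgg

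The 16 control libraries labelled DLD1 address time in culture and the dye itself. Because they resembled HCT15, they were compared only with each other. COL4A1 was at 0.126 to 0.450 CPM in all 16, against 15.0 to 17.2 CPM in DLD1 non-LRCs and 0.273 to 0.405 CPM in HCT15 non-LRCs. ITGB6 was at 1.86 to 10.2 CPM in the 16, against 59.1 to 76.7 CPM in DLD1 and 7.71 to 13.0 CPM in HCT15 non-LRCs. The time and dye comparisons share groups of libraries, so their results are given side by side and not compared.

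Over time in unlabeled cells, 8 of 30 rose (ITGA5, ITGA9, ITGAV, ITGB1, LAMA4, LAMB2, LAMB3, LAMC1) and 4 fell (ITGA10, LAMA1, LAMA5, NID1), against 12.4% of all genes higher and 13.1% lower. NID1 was low, at a mean log2 CPM of -1.05 over the controls, and its fall had a wide error (-4.56, SE 1.63). The number of genes that passed turned on the day 1 library that stood apart. LAMB3 was at 31.9, 33.7, 35.1 and 121 CPM on day 1 and at 164, 117, 145 and 139 CPM on the later day. ITGA10 was at 8.75, 7.10, 7.60 and 1.0 CPM and then at 0.756, 0.587, 0.679 and 1.26 CPM, and COL17A1 at 8.0, 9.34, 11 and 51.9 CPM and then at 36.2, 30.7, 57 and 55.7 CPM. In all 3 genes day 1 replicate 4 lay with the later day and the other 3 did not. Without that library, an alternative chosen after seeing the data, 14 rose and 7 fell, against 19.2% of all genes higher and 22.9% lower. LAMB3 then rose by 2.0 on the log2 scale (adjusted p = 1.95e-05), COL17A1 by 2.18 (adjusted p = 1.17e-05) and ITGA9 by 3.32 (adjusted p = 3.76e-05), and ITGA10 fell by 3.31 (adjusted p = 3.71e-06). Leaving out all controls numbered 1, 2 or 3 left 0 of the set and 0% of all genes past the threshold, and leaving out those numbered 4 left 21, against 44.8%.

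Over time in CFSE-labeled cells, 11 of 30 rose and 6 fell, against 20.2% of all genes higher and 19.1% lower. The 11 were ITGA1, ITGA3, ITGAV, ITGB1, ITGB4, ITGB5, ITGB6, LAMB2, LAMC1, COL17A1 and COL18A1, and the 6 were ITGA2, ITGA5, ITGA7, ITGA10, LAMA5 and COL4A2. LAMA5, an alpha chain of the common epithelial laminins, was at 158, 113, 173 and 163 CPM on day 1 and at 27.1, 21.1, 66.3 and 35.0 CPM on the later day, and fell by 2.05 (SE 0.47, adjusted p = 0.00323). In unlabeled cells it was at 214, 188, 147 and 91.4 CPM and then at 16.2, 19.7, 52.9 and 96.1 CPM, and fell by 1.79 (SE 0.47, adjusted p = 0.0152). ITGB1 was at 372, 357, 398 and 414 CPM on day 1 with the dye and at 718, 733, 608 and 613 CPM later, without overlap, and rose by 0.75 (SE 0.16, adjusted p = 0.00239). LAMB3 was at 184, 208, 95.5 and 92.8 CPM on day 1 and at 79.1, 75.0, 79.7 and 89.9 CPM later, with replicates 1 and 2 well above 3 and 4 on day 1, and did not pass (-0.89, adjusted p = 0.0636). Without the controls numbered 1, 2 or 3, the CFSE count was 9, 9 and 11, against 22.3%, 20% and 30% of all genes. Without CFSE later-day replicates 3 and 4, an alternative chosen after seeing the data, 6 rose (ITGA1, ITGA3, ITGAV, ITGB1, ITGB4, ITGB5) and 3 fell (ITGA10, LAMA5, COL4A2), against 13.9% of all genes higher and 14.4% lower.

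Whether the change over time differed with and without the dye was tested as the difference of both contrasts, an alternative chosen after seeing the data. It passed for LAMB3 (-2.23, SE 0.52, adjusted p = 0.0495) and for 0.999% of all genes. Without unlabeled day 1 replicate 4 it passed for LAMB3 (-2.90, adjusted p = 0.00104), ITGA5 (-1.20, adjusted p = 0.0377) and LAMA1 (1.84, adjusted p = 0.0115), and for 6.09% of all genes. Without CFSE later-day replicates 3 and 4 it passed for no gene of the set and 0% of all genes by edgeR (LAMB3 -2.31, adjusted p = 0.118).

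With CFSE against DMSO on day 1, 4 of 30 were higher (ITGA2 1.16, ITGA5 0.97, ITGA6 0.48, LAMB3 1.42) and 5 lower (ITGA3 -0.32, ITGB4 -0.64, LAMB2 -0.72, COL18A1 -1.54, AGRN -0.74), against 9.73% of all genes higher and 12% lower. Without unlabeled day 1 replicate 4 the same 4 were higher and 2, ITGB4 and COL18A1, were lower, against 7.39% of all genes higher and 10.6% lower. Without the controls numbered 1 or 2, 1 gene passed in each case, against 5.44% and 2.36% of all genes. With the dye ITGA2 was at 492 and 469 CPM in replicates 1 and 2 and at 238 and 252 CPM in replicates 3 and 4, against 142 to 202 CPM without the dye, so the groups did not overlap. On the later day LAMA1 was higher with the dye (1.23, SE 0.32, adjusted p = 0.0357) and AGRN lower (-0.81, SE 0.21, adjusted p = 0.0382), 2 of 30, against 3.11% of all genes higher and 2.03% lower. AGRN was at 159, 151, 252 and 243 CPM with the dye and at 304, 310, 385 and 401 CPM without it, apart on that day. Neither passed without the controls numbered 1, 2 or 3, where 0% of all genes did, and 7 genes passed without those numbered 4, against 11.3%. Without CFSE later-day replicates 3 and 4 none was higher (LAMA1 1.18, adjusted p = 0.0637) and 4 were lower (AGRN, LAMB2, COL4A2 and HSPG2), against 6.39% of all genes higher and 4.63% lower.

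**Figure D5:**
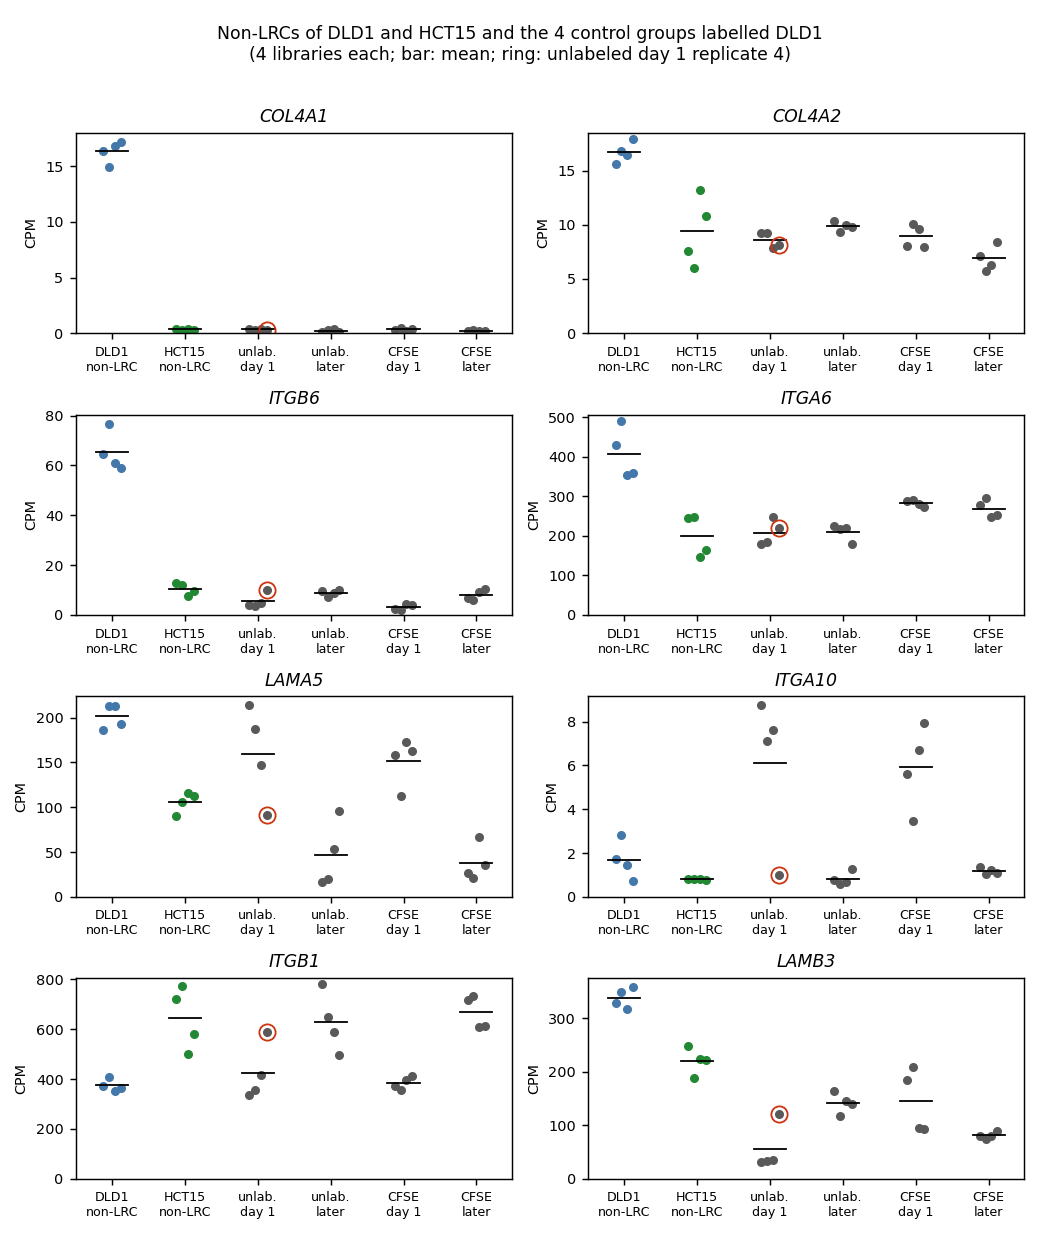
CPM of 8 adhesion genes in non-LRCs of DLD1 and HCT15 and in the 4 control groups labelled DLD1 (horizontal axis), 4 libraries each with a bar at the mean and a ring around unlabeled day 1 replicate 4. COL4A1 is at 15.0 to 17.2 CPM in DLD1 non-LRCs and at most 0.450 CPM in the controls, and the ringed library holds LAMB3 at 121 CPM beside 31.9 to 35.1 CPM in its group.

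A list of 59 other genes of the pathway, covering further integrin and laminin chains, adaptors of focal adhesions, hemidesmosome parts and matrix ligands, was read in the same fit across lines. Of 45 tested, 12 rose and 2 fell, against 12.2% of all genes higher and 10.7% lower. The median log2 fold change of the 45 was 0.051, against 0.015 over all genes. The highest were LAMC3 (1.05), another laminin gamma chain, FN1 (0.97), which encodes fibronectin, the ligand of the ITGA5 receptor, and COL6A3 (0.78). The 2 that fell were CD151 (-0.20), a tetraspanin that binds laminin receptors, and FERMT1 (-0.18), the epithelial kindlin that activates integrins. Of the 21 adaptors, 4 rose and 1 fell, against the same 12.2% and 10.7% of all genes, with a median of -0.032.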

How the data were processed

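The authors deposited 1 table of gene-level read counts per library, unnormalized and whole, from single-end reads of 50 bp aligned to hg19. The submitters' processing notes name TopHat, HTSeq and DESeq, with no versions or roles, and the gene annotation and use of strand are not given in the sources used here. Reads outside genes made up 5.19% to 14.8% of each library and were left out of library sizes and tests. No value columns of other samples were present, and no pair of replicates agreed within sampling noise (lowest mean chi-square per gene 2.2).

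A gene entered a fit where 4 or more of its libraries held 10 or more reads. Counts were scaled by TMM and tested two-sided in R 4.3.3 with edgeR 4.0.16 (quasi-likelihood test), with Benjamini-Hochberg adjustment over all genes and a threshold of 0.05. CPM used TMM library sizes over all 64 libraries, and levels per kilobase used the joined length of all exons of a gene in GENCODE release 44 on GRCh37. The level of 3 reads served as the floor of detection, which covers counting error only. Fold changes are LRC over non-LRC, later day over day 1, or CFSE over unlabeled. The fits were tested on simulated data, and DESeq2 1.42.0, its size factors, no filter, the replicate block, all 48 sorted libraries in one fit and each replicate or line left out were the alternatives.

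Replicate numbers come from the sample titles. Same-numbered libraries of the 2 populations deviated together (every r over 0.1) in HT55 (lowest r 0.220), SW48 (0.185), DLD1 (0.254), HCT15 (0.333) and the CFSE-labeled controls over time (0.120), and not in SW948 (-0.013), RKO (-0.091), the unlabeled controls over time or either comparison of the dye. By that rule alone the numbers were read as pairs in the first 5. In HT55, SW48, DLD1 and HCT15 the mean r was 0.348 to 0.478 for same numbers and -0.159 to -0.104 for different numbers. In each of these lines some libraries still correlated more with a different number. HCT15 LRC replicate 1 had r 0.573 with non-LRC replicate 2 and 0.333 with non-LRC replicate 1. Whether the numbers mark true pairs is therefore not settled. Members and gene lists were chosen with earlier results of these data known. Genes past the threshold across the 6 lines are given in full, the others by count, range or name where a test passed, and of the other pathway genes the 3 highest and 3 lowest that passed are named, of which 2 fell.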

Additional observations from a re-analysis of the deposited data

Results flagged for a closer look

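Among the 120 groups of 4 sorted libraries of the 10 genes that rose across lines, 8 held a library far from the other 3 by Dixon's ratio at its 95% critical value, where chance gives about 1 in 20 groups. ITGA3 was at 362.8 CPM in RKO LRC replicate 1. ITGA5 was at 38.01 CPM in HT55 non-LRC replicate 2, ITGAV at 80.29 CPM in SW48 LRC replicate 4 and ITGB8 at 22.62 CPM in SW48 LRC replicate 2. LAMB2 was at 319.0 CPM in HCT15 non-LRC replicate 2 and at 104.2 CPM in RKO non-LRC replicate 1. LAMB3 was at 1283 CPM in SW48 LRC replicate 2, and LAMC1 at 145.6 CPM in SW948 non-LRC replicate 2. ITGA3 in RKO and LAMB2 in RKO were far above the other 3 libraries and the rest were far below.

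The LRC effect differed between lines for 11 genes by the interaction test of edgeR. The adjusted p was 1.41e-07 for ITGA3, 2.1e-05 for AGRN, 0.0012 for ITGAE, 0.00173 for LAMC1, 0.00341 for LAMA3, 0.00484 for ITGA7, 0.00506 for ITGA2, 0.00716 for ITGB7, 0.00875 for LAMB2, 0.00947 for LAMA5 and 0.0268 for COL18A1.

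The change over time in the control libraries differed between CFSE-labeled and unlabeled cells for LAMB3 (adjusted p = 0.0495 by edgeR), and not without CFSE later-day replicates 3 and 4 (0.118). Without unlabeled day 1 replicate 4, the adjusted p was 0.00104 for LAMB3, 0.0377 for ITGA5 and 0.0115 for LAMA1.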

How the results depend on the processing

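The number of adhesion genes past the threshold, like the share of all genes, depended on the setting in most fits. With DESeq2 it was 4 in SW48, 2 in HCT15 and 7 for the dye on the later day, against 2.73%, 3.77% and 10.5% of all genes. With DESeq2's size factors it was 1 in SW48, against 0.781%. With all 48 sorted libraries in one fit it was 1 in SW948, 4 in SW48 and 2 in DLD1, against 2.34%, 2.93% and 3.89% of all genes. With no filter on low counts it was 1 in HT55, 3 in SW948 and 2 in HCT15, against 0.388%, 3.60% and 1.26% of all genes. It was then 17 for the difference between lines and 5 for the dye on the later day, against 7.86% and 3.41%. With the replicate block it was 10 in SW48, 16 in DLD1 and 11 in HCT15, against 9.69%, 33.8% and 21.3% of all genes. It was 24 for the difference between lines, 3 in SW948 and 7 for the dye on the later day, against 33.6%, 3.66% and 10.4%. Within 1.5 times the counts without the block were 0 in HT55 (0% of all genes), 17 in RKO (37.2%) and 11 for the dye on day 1 (26.2%). So were 18 over time in unlabeled cells (30.0%) and 20 in CFSE-labeled cells (42.3%). Without RKO it was 4 across lines, against 14.6% of all genes. Without CFSE later-day replicates 3 and 4 it was 9 over time in CFSE-labeled cells, against 28.3%. For the dye on the later day it was then 4, against 6.39% of all genes higher and 4.63% lower. Leaving out each replicate number in turn gave 6 to 9 across lines (13.7% to 18% of all genes). In HT55 it gave 0 to 5 (0% to 6.13%) and in SW948 0 to 3 (0% to 7.02%). In SW48 it gave 0 to 4 (0% to 3.84%) and in DLD1 3 to 7 (4.35% to 11.4%). HCT15 stayed at 0 (0% to 0.196%), and the difference between lines ran from 5 to 16 (3.20% to 17.4%). Over time it gave 0 to 21 in unlabeled cells (0% to 44.8%) and 9 to 19 in CFSE-labeled cells (20% to 40%). For the dye it gave 1 to 9 on day 1 (2.36% to 23.8%) and 0 to 7 on the later day (0% to 11.3%). In RKO it gave 13 to 16 (27.3% to 37.6%), and for levels between lines 30 to 31 (97.0% to 98.2%). The signs that turned across lines belonged to genes that had not passed: COL5A1 with DESeq2 (1.085), ITGB4 without replicate 3 (-0.008918, with 0.05144 as the highest value without 1 replicate number), ITGB6 without HT55 (-0.002643) and without SW948 (-0.02827), ITGAE (0.03772), ITGB4 (-0.05487), AGRN (-0.02149) and HSPG2 (-0.007076) without RKO, COL4A1 without DLD1 (0.1424) and LAMB1 without HCT15 (0.01781). The causes were not tested. With 4 libraries per group and a level of 3 reads near 0.2 CPM, differences in genes at or under that level could not be read.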
